A study of Mus musculus with 14 samples.

Results

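The 10 genes described here are H2-K1, H2-D1, B2m, Tap1, Tap2, Tapbp, Psmb8, Psmb9, Nlrc5 and Ubd, the machinery that makes peptides, carries them into the endoplasmic reticulum and shows them on MHC class I at the cell surface. They were chosen by name, and all 10 had a value in each of the 14 samples, out of 15078 genes tested in one experiment and 13915 in the other. RNA-Seq was run on mouse CD4+ T cells, as 2 experiments that each compared a histone deacetylase mutant with WT littermates on the C57BL/6 background. In the first, sorted naive cells were kept for 3 days with anti-CD3, anti-CD28 and IL-2, without polarizing cytokines, and 4 HDAC1cKO-HDAC2HET samples (Hdac1 floxed on both alleles, Hdac2 on one, Cd4-Cre) were set against 4 WT samples. In the second, 3 HDAC1cKO samples (Hdac1 floxed on both alleles, Cd4-Cre) and 3 WT samples were cultured for as long and received a further 12 hours of anti-CD3. The mice were 6 to 12 weeks old, and the paper states for its work in general that both sexes were used. The sex marks of the libraries are given below. Cd4-Cre deletes the floxed alleles in the T cell lineage, from the CD4+CD8+ thymocyte stage on, and the heterozygous group keeps 1 Hdac2 allele.

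MHC class I molecules consist of a heavy chain, here H2-K1 or H2-D1, the light chain β2-microglobulin (B2m) and a peptide. The peptides are cut in the cytosol by the proteasome, in which Psmb8 and Psmb9 replace constitutive catalytic subunits after interferon exposure. Tap1 and Tap2 form the transporter that pumps the peptides into the endoplasmic reticulum, and tapasin (Tapbp) holds the empty class I molecule at that transporter. Nlrc5 is the transcriptional coactivator of class I genes in lymphocytes, and Ubd encodes FAT10, a ubiquitin-like protein that targets its conjugates to the proteasome.

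On GRCm38 8 of the 10 genes lie in the MHC region of chromosome 17, from Tapbp (chr17:33915899-33929292, plus strand) to Ubd (chr17:37193892-37196095, plus strand). The others are B2m on chromosome 2 (chr2:122147686-122153083) and Nlrc5 on chromosome 8 (chr8:94434356-94527272), both on the plus strand. H2-K1 (chr17:33996017-34000347, minus strand) and H2-D1 (chr17:35262730-35267499, plus strand) are paralogs of each other and of the H2-Q genes, so short reads can be shared among them and it is uncertain which gene some reads came from. Psmb9 (chr17:34181987-34187764, minus strand) and Tap1 (chr17:34187553-34197225, plus strand) point away from each other and overlap by 212 bases at their 5′ ends, and Psmb8 (chr17:34197721-34201454) and Tap2 (chr17:34203527-34216321) follow on the plus strand.

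The sequences just before the start site are shown for 3 genes that behaved differently in the first experiment, Ubd with the greatest change of the 10, H2-K1 with a small one and B2m, which did not pass the test. Each is the 250 bases before the RefSeq start on GRCm38.p6, and the capitals mark matches to the motifs spelled out after them.
Ubd, chr17:37193642-37193891, plus strand: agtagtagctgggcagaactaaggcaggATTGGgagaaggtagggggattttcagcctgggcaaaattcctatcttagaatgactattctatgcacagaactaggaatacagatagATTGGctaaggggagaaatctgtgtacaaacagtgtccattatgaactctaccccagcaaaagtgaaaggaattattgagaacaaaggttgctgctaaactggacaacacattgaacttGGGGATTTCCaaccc
H2-K1, chr17:34000348-34000597, minus strand: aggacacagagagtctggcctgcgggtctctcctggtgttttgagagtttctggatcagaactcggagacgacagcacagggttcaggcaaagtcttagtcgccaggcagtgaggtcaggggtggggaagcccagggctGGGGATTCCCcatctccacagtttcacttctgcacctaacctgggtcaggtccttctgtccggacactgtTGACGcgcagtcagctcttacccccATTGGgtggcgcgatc
B2m, chr2:122147437-122147686, plus strand: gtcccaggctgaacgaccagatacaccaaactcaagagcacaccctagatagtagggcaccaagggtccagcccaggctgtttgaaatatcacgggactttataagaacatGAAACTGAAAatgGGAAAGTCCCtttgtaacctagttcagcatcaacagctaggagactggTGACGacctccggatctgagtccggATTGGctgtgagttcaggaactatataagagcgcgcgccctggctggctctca

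The motifs were searched on both strands of windows from 250 bases before to 50 after the start, which were at hand for 8 of the 10 genes. The RefSeq start of Tapbp lay 3579 bases from the 5′ end of the locus given above, so its window is inside that locus. Those of Psmb8, Psmb9 and H2-D1 lay 474, 434 and 364 bases from the 5′ ends of theirs. The κB-like motif (GGG, any 2 bases, TT, any base and CC), of the kind NF-κB binds, stood in the windows of 4 of the 8 genes, B2m, H2-D1, H2-K1 and Ubd, and in 4.79% of all 32851 windows. In Ubd it began 15 bases before the start, and in H2-K1 111 bases before it. The Y box CCAAT, read by NF-Y, stood in 7 of the 8 genes and in 37.4% of all windows, and TGACG, the core of the X2 box of MHC promoters, stood in 5 of the 8 and in 20.8%. The windows of Psmb9 and Tap1 overlap and hold the same TGACG and the same CCAAT. B2m alone held an exact match to the interferon-stimulated response element core (GAAA, any 2 bases and GAAA), found in 3.44% of all windows. Psmb8 alone held an exact match to the γ interferon activation site TTCNNNGAA, found in 8.3%. A match is a run of letters and not a measured binding site. Sites that depart from these letters were not searched for and are not marked, so a window without a match can still hold such a site.

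Before the class I genes, the labels were checked on the deleted genes. Hdac1 fell from 78.1 ± 1.4 FPKM (fragments scaled to transcript length and library size; mean ± SD, n = 4) in WT to 8.30 ± 1.89 in HDAC1cKO-HDAC2HET, and from 75.6 ± 4.8 to 10.1 ± 1.8 (n = 3) in HDAC1cKO. Hdac2 fell from 59.1 ± 1.0 to 35.4 ± 1.4 FPKM in HDAC1cKO-HDAC2HET and was 72.4 ± 8.7 against 80.4 ± 6.9 in HDAC1cKO, where it did not pass (limma, adjusted p = 0.581). Depth was estimated at 25440000 to 60000000 fragments per library in the first experiment and 29320000 to 49770000 in the second. The libraries were rich in T cell markers, whose 8 genes summed to 1600 to 1768 FPKM in WT at 3 days and to 1344 to 1404 in HDAC1cKO-HDAC2HET, below every WT library. After restimulation they summed to 1208 to 1576 in WT and 1424 to 1664 in HDAC1cKO. Cells were sorted, but markers of other cells were looked at too. The macrophage and dendritic cell list stayed at or below 0.538 FPKM summed over its genes and the NK cell list at or below 0.354. The B cell list summed to 0.541 to 1.00 FPKM in WT at 3 days and 2.95 to 4.596 in HDAC1cKO-HDAC2HET, mostly through Cd79b, which rose from 0.293 ± 0.071 to 2.76 ± 0.47 and was the one of its 2 tested genes to pass. Ms4a1, which defines B cells, was at 0.034 and 0.070 FPKM. Their part in the class I results was not tested. In bulk RNA, fewer cells of a type and less RNA per cell cannot be told apart.

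The sex of the mice was not balanced in the second experiment. Xist, expressed from the inactive X of females, was 42.9, 0.019 and 33.2 FPKM in WT replicates 1, 2 and 3 and at most 0.044 in the 3 HDAC1cKO samples, and the Y-linked Eif2s3y was 0.033, 35.0 and 5.56 in the WT samples and 34.1 to 43.1 in the mutants. Replicate 2 was thus the one WT library with the sex marks of the mutants, and replicate 3 held both kinds of mark. In the first experiment Xist was 58.9 to 65.2 FPKM in WT and 26.0 to 33.7 in HDAC1cKO-HDAC2HET, with Eif2s3y at or below 0.012. Every library of that experiment thus had the marks of females.

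The first comparison asks whether loss of HDAC1 with 1 remaining Hdac2 allele changed the class I pathway in activated CD4+ T cells. Of the 10 genes, 8 rose in HDAC1cKO-HDAC2HET (H2-K1, H2-D1, Tap1, Tap2, Tapbp, Psmb8, Psmb9 and Ubd), 1 fell (Nlrc5) and B2m did not pass. A gene passed at an adjusted p of at most 0.05 over all genes tested. Among all genes tested 24.2% passed as higher and 27.6% as lower, and the 4 libraries of a group came from 4 separately prepared cell batches of the same day. Apart from Ubd, the increases were between 1.13-fold and 1.40-fold. Ubd alone passed with a change of at least 2-fold, as 5.61% of all genes did upward. The median log2 fold change of the 10 was 0.26, beside -0.04 over all genes tested. In 7 of the 10 genes the groups did not overlap, 6 with the mutant higher and 1 with it lower, beside 23.4% of all genes with the mutant higher and 26.9% with it lower.

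**Figure D1:**
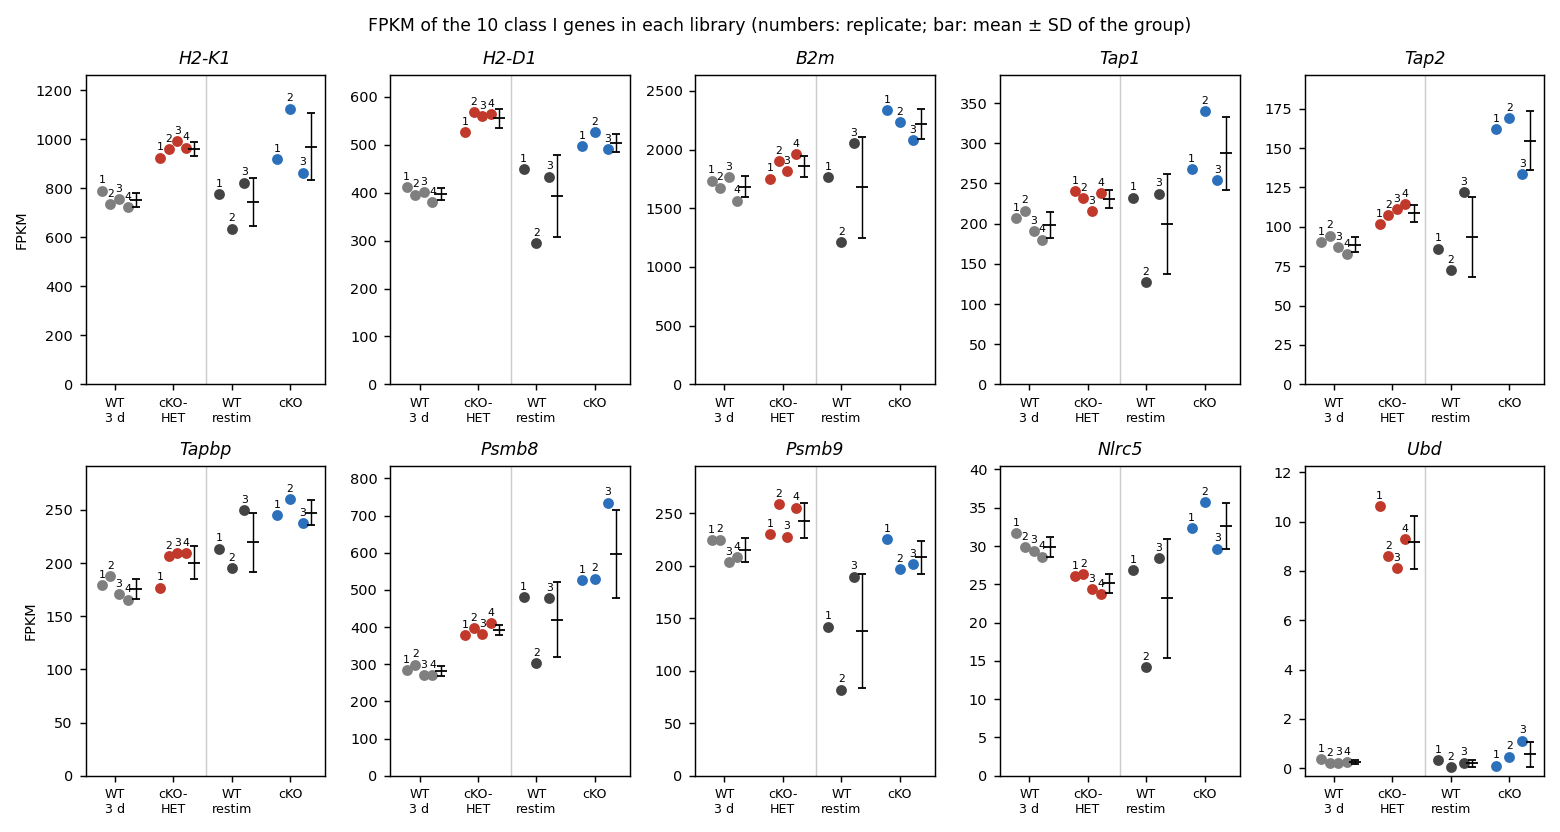
FPKM (y axis, linear) of each of the 10 genes in each library, by group: WT at 3 days, HDAC1cKO-HDAC2HET (cKO-HET), restimulated WT and HDAC1cKO (cKO). Points are libraries with their replicate number and the bar beside them is the mean ± SD. Ubd stands at 8.11 to 10.6 in HDAC1cKO-HDAC2HET and at or below 1.12 elsewhere, and restimulated WT replicate 2 is the lowest of its 6 libraries in every panel.

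The heavy chains were higher in every mutant library. H2-K1 was 790.3, 736, 756 and 723 FPKM in WT and 925, 959, 992 and 966 in HDAC1cKO-HDAC2HET, a 1.28-fold increase (95% interval 1.198 to 1.365; log2 0.35, SE 0.04, adjusted p = 0.000201). H2-D1 was 412, 396, 401 and 381 FPKM in WT and 527, 568, 560.4 and 563 in the mutant, which is 1.40-fold (1.31 to 1.48, adjusted p = 3.08e-05). The lowest mutant library lay above the highest WT library for both genes. B2m, the light chain shared by all class I molecules and the most abundant of the 10 transcripts, was 1735, 1675, 1765 and 1565 FPKM in WT and 1752, 1899, 1819 and 1958 in the mutant, where the lowest mutant value was below the highest WT value. Its difference was 1.10-fold (1.01 to 1.21, adjusted p = 0.0733), and it passed only under 4 of 19 other settings tried.

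The proportion of light chain to heavy chains was lower in the mutant. Per unit length, B2m RNA was 1.47 ± 0.05 times the sum of H2-K1 and H2-D1 in WT and 1.23 ± 0.05 times in HDAC1cKO-HDAC2HET (n = 4; 2-sided exact permutation test, p = 0.0286, the smallest that 4 against 4 can give). The ratio of H2-K1 to H2-D1 was 1.89 ± 0.03 in WT and 1.73 ± 0.04 in the mutant (exact p = 0.0286). In both ratios the 4 mutant libraries were below all 4 WT libraries. Across 6 such shares and ratios in each of the 2 comparisons, 12 p-values were computed, and the smallest, shared by 4 of them, was 0.0857 after Benjamini-Hochberg adjustment.

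The transporter genes also rose. Tap1 was 207, 216, 190.4 and 180.2 FPKM in WT and 240.4, 231, 215 and 238 in the mutant (1.17-fold, 1.051 to 1.29, adjusted p = 0.0212). Its groups overlapped by 1 library on each side. Tap2 was 90.2, 94.4, 87.1 and 82.9 FPKM in WT and 102, 107, 111 and 114 in the mutant, without overlap (1.23-fold, 1.13 to 1.33, adjusted p = 0.00178). Tap1 RNA was 2.24 ± 0.07 times Tap2 RNA in WT and 2.13 ± 0.18 times in the mutant (exact p = 0.314). Tapbp was 179, 187.5, 171 and 166 FPKM in WT and 177, 207, 209 and 209 in the mutant, 1.14-fold (1.02 to 1.27, adjusted p = 0.0454), with mutant replicate 1 below 2 of the WT libraries. The calls of Tap1, Tapbp and Psmb9 were lost under some of the other settings: Tap1 passed in 15 of 19, Tapbp in 9 of 19 and Psmb9 in 12 of 19. Tap2 passed in 18 of 19, with its call lost when all 14 libraries were fitted together (adjusted p = 0.0808).

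Of the proteasome genes, Psmb8 (LMP7) was 284, 299, 269.7 and 272 FPKM in WT and 379, 397, 382 and 410.1 in the mutant, a 1.40-fold increase without overlap (1.30 to 1.498, adjusted p = 6.35e-05). Psmb9 (LMP2) was 225, 225, 203 and 208 FPKM in WT and 229.9, 259, 228 and 255 in the mutant, 1.13-fold (1.03 to 1.24, adjusted p = 0.0371). The gap between its groups, from 225 to 228 FPKM, was small beside the spread within them. The constitutive subunits that these replace also rose, Psmb5 from 115 ± 6 to 147 ± 3 FPKM (adjusted p = 0.000177) and Psmb6 from 228 ± 4 to 307 ± 18 (adjusted p = 0.000152). As a share of each pair, Psmb8 was 71.0% ± 0.8 of Psmb8 plus Psmb5 in WT and 72.7% ± 0.5 in the mutant, and Psmb9 was 48.5% ± 0.9 of Psmb9 plus Psmb6 in WT and 44.2% ± 1.9 in the mutant (exact p = 0.0286 for each). The Psmb9 share thus was lower in every mutant library although Psmb9 itself was higher, and the Psmb8 share was higher.

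The third pair could not be read in the same way. Psmb10 (MECL-1) was 61.3, 60.2, 63.2 and 85.3 FPKM in WT and 176, 85.7, 174 and 86.4 in the mutant, and its constitutive counterpart Psmb7 was 178, 179.6, 174 and 288 in WT and 190, 206, 206 and 375 in the mutant. Values of the same gene thus stood at levels far apart within a group, also where the assembled locus had the same ends. The Psmb10 share was 25.1% ± 1.6 in WT and 35.5% ± 13.9 in the mutant (exact p = 0.286).

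**Figure D2:**
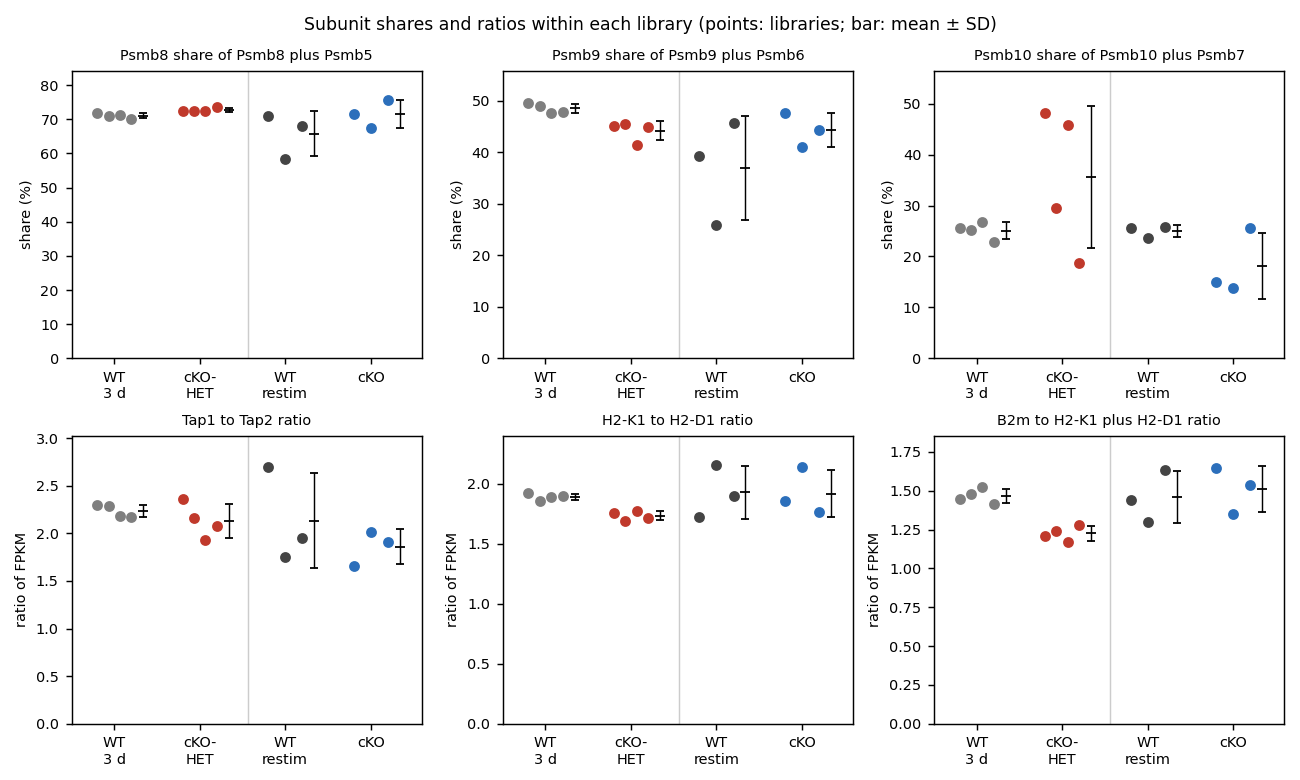
Share of the immunoproteasome subunit in each catalytic pair (%) and ratios between class I genes (FPKM over FPKM) within each library, by group, with mean ± SD. The B2m ratio is 1.17 to 1.28 in HDAC1cKO-HDAC2HET and 1.42 to 1.52 in WT, and the Psmb10 share is spread from 18.7% to 48.1% in that mutant.

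Nlrc5, the coactivator of the class I genes, moved the other way. It was 31.7, 29.8, 29.4 and 28.6 FPKM in WT and 26.1, 26.3, 24.4 and 23.8 in HDAC1cKO-HDAC2HET, 0.841 of the WT level (0.780 to 0.907; log2 -0.25, SE 0.05, adjusted p = 0.00266). All 4 mutant libraries lay below the 4 WT libraries, while the heavy chains, Tap2 and Psmb8 lay above them in the same libraries. The call passed under 18 of 19 other settings and was lost when all 14 libraries were fitted together (adjusted p = 0.251). The assembled locus of Nlrc5 had the same start and end in all 8 libraries.

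Ubd showed the greatest change of the 10 genes. It was 0.382, 0.210, 0.231 and 0.237 FPKM in WT and 10.6, 8.60, 8.11 and 9.30 in HDAC1cKO-HDAC2HET. On the log2(FPKM + 0.1) scale this was 4.68 (SE 0.16, adjusted p = 1.14e-06), or 25.6-fold, and the ratio of the group means was 34.6. The highest upper bound that the deposited files give a WT library was 0.581 FPKM, and the lowest lower bound of a mutant library was 6.70. The fold depends on the pseudocount, with a log2 of 3.00 at 1 and 5.09 at 0.01. In its pathway Sqstm1, the autophagy receptor p62, rose from 42.8 ± 0.7 to 65.6 ± 6.0 FPKM, Nub1, which links FAT10 to the proteasome, rose from 47.2 ± 2.5 to 58.4 ± 1.2, and Uba6, its activating enzyme, fell from 13.9 ± 0.3 to 12.8 ± 0.4 (adjusted p = 0.000118, 0.000408 and 0.0221). Even after the increase Ubd was the least abundant of the 10 transcripts.

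Per unit length, the WT levels at 3 days ran in the order B2m, H2-K1, H2-D1, Psmb8, Psmb9, Tap1, Tapbp, Tap2, Nlrc5 and Ubd, from 1685 ± 89 FPKM for B2m to 0.265 ± 0.079 for Ubd. Among neighbours in this order, only Psmb9 and Tap1 and then Tap1 and Tapbp had libraries that overlapped. In restimulated WT cells Psmb8 (420.3 ± 101.8 FPKM) stood before H2-D1 (393 ± 85), with overlapping libraries, and Psmb9 (138 ± 54) came after Tapbp and Tap1.

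The other genes of the pathway were taken as lists. The counts of each list stand beside 24.2% of all genes tested that passed as higher and 27.6% as lower. Of 13 heavy chains tested, 7 rose, 3 fell and 3 did not pass, with a median log2 fold change of 0.36. The nonclassical H2-Q6 and H2-Q7 rose most, from 12.5 ± 3.9 to 36.8 ± 4.7 FPKM and from 49.4 ± 11.3 to 101 ± 5, and H2-T23, which encodes the Qa-1 molecule read by NKG2A, rose from 129 ± 16 to 238 ± 23 (adjusted p = 0.000664, 0.000736 and 0.000204). Cd1d1, which presents lipids, fell from 1.49 ± 0.41 to 0.559 ± 0.099 FPKM. The more abundant H2-Q4 fell from 127 ± 6 to 99.4 ± 5.6 and H2-T24 from 9.25 ± 1.58 to 6.76 ± 0.51 (limma, adjusted p = 0.000642 and 0.0189), both without overlap. H2-Q6 and H2-Q7 are near-identical copies, and their values are uncertain as to which gene the reads came from. Of 11 genes of peptide transport and loading, 8 rose, 2 fell and 1 did not pass. The greatest was Tapbpl (TAPBPR, a peptide editor related to tapasin), from 43.5 ± 2.1 to 82.2 ± 6.5 FPKM (1.89-fold, adjusted p = 1.68e-05), followed by the chaperones Pdia3 (1.36-fold) and Calr (1.32-fold). The 2 that fell were both trimming aminopeptidases, Lnpep to 0.720 of WT and Erap1 to 0.840 (limma, adjusted p = 0.0119 for Erap1).

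Of 6 immunoproteasome and activator genes, 4 rose, 1 fell (Psme3, 0.907 of WT) and 1 did not pass. Among the 4 was Psmb10 (adjusted p = 0.0328), an inducible subunit whose mutant libraries stood far apart (85.7 to 176 FPKM, against 60.2 to 85.3 in WT). In the constitutive core, 9 of 14 genes rose and 5 did not pass, with Psmb3 at 1.37-fold and Psma5 at 1.32-fold. The median log2 fold change was 0.17 for the first list and 0.25 for the second.

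More genes that control class I transcription fell than rose. Of 13 tested, 7 fell, 3 rose and 3 did not pass, beside 27.6% of all genes lower and 24.2% higher. The median log2 fold change of the list was -0.37. Rfx5, the DNA-binding subunit of the regulatory factor X complex through which Nlrc5 acts, fell from 4.38 ± 0.58 to 2.27 ± 0.30 FPKM (adjusted p = 0.00047), Atf1 fell from 39.5 ± 1.8 to 25.2 ± 1.2, and Irf2 fell from 37.2 ± 0.9 to 27.0 ± 1.4. Irf1, an interferon-induced activator of class I genes, rose from 115 ± 16 to 165 ± 11 (adjusted p = 0.00239). In interferon γ signalling, 3 of the 6 genes tested rose and 3 fell. Ifng was 0.963 ± 0.396 FPKM in WT and 80.9 ± 13.7 in the mutant (79.1-fold, adjusted p = 1.85e-06) and Stat2 rose from 20.4 ± 4.2 to 34.0 ± 1.0, while Jak2, a kinase of the receptor, fell from 138 ± 14 to 48.4 ± 4.6 and Ifngr2, a receptor chain, fell from 7.05 ± 0.30 to 3.36 ± 0.58.

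**Figure D3:**
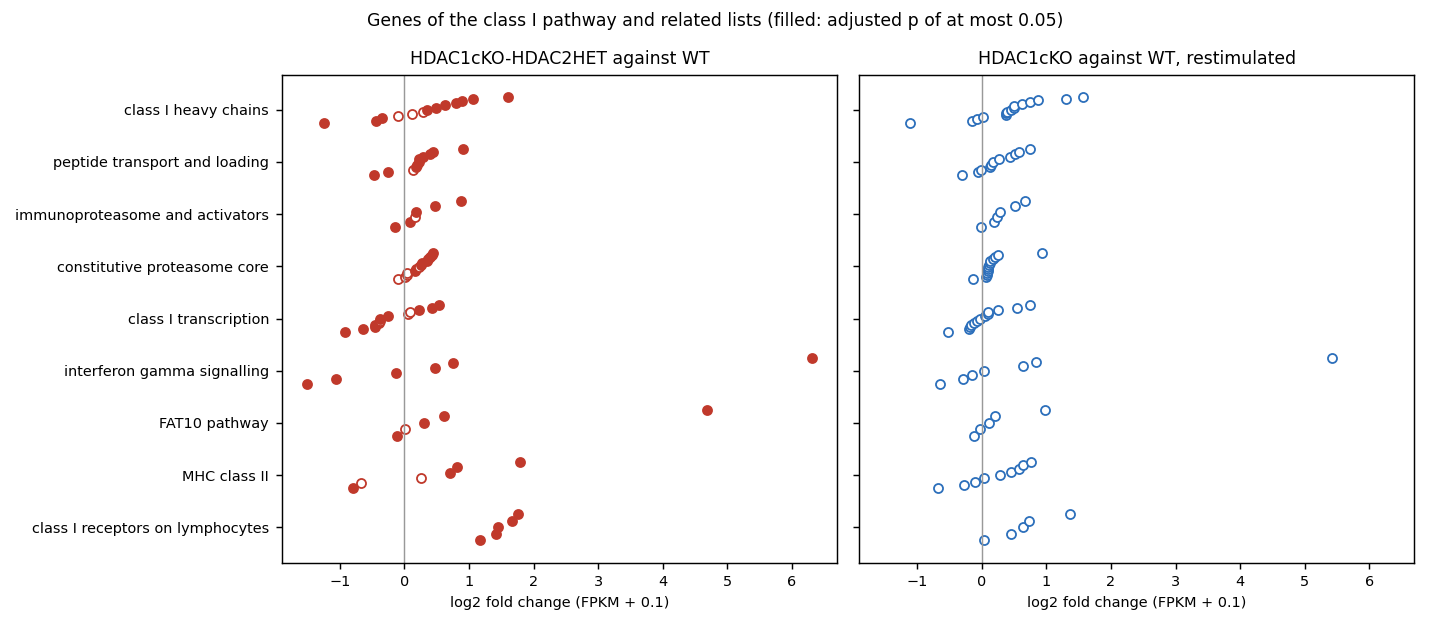
Log2 fold change on the log2(FPKM + 0.1) scale (x axis) of each tested gene of 9 lists (y axis), in the 3-day experiment and in the restimulation experiment. Filled points passed at an adjusted p of at most 0.05. Ifng (6.31) and Ubd (4.68) stand far to the right of the other genes in the 3-day experiment, and no point is filled in the restimulation experiment.

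MHC class II genes did not follow a single direction. Of 6 tested, H2-Oa (1.33 ± 0.19 to 4.82 ± 0.36 FPKM), H2-DMa (10.3 ± 1.0 to 18.1 ± 1.2) and H2-Aa (1.11 ± 0.22 to 1.85 ± 0.12) rose, and Cd74, the invariant chain, fell from 91.4 ± 7.6 to 52.7 ± 4.2. Ciita, the class II counterpart of Nlrc5, was not tested in the first experiment and was listed at 0 in all 6 libraries of the second. Of a list of 9 lymphocyte receptors, most of them for class I, 5 were tested. All 5 rose at least 2-fold, beside 5.61% of all genes. Lag3, best known as a receptor for MHC class II, was the only one above 50 FPKM in WT (57.0 ± 5.3 to 152 ± 21). Cd8a rose from 0.058 ± 0.022 to 0.439 ± 0.108, Cd8b1 from 4.71 ± 1.34 to 12.8 ± 1.6 and Klrd1 from 0.173 ± 0.136 to 0.755 ± 0.306. Klrc1 rose from 0.068 ± 0.075 to 0.267 ± 0.099. The libraries of the groups overlapped for Klrd1 and Klrc1. Cd8a and Klrc1 reached the mean of 0.1 FPKM needed for testing only through the mutant libraries, so the count of this list depends in part on that filter. By contrast, 7 of the 8 T cell markers fell, beside 27.6% of all genes. Examples were Cd3d from 166 ± 10 to 105 ± 2, Cd28 from 95.4 ± 6.6 to 61.9 ± 1.5, Cd3e from 199.4 ± 10.4 to 135 ± 3 and Zap70 from 138 ± 7 to 93.8 ± 1.1.

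The second comparison asks the same of cells without HDAC1 but with both Hdac2 alleles, after restimulation. None of the 10 genes passed (limma; adjusted p from 0.227 for Tap2 to 0.597 for Ubd), beside 10 of 13915 genes in all (0.0719%). At an unadjusted p under 0.05 there were 2, H2-K1 and Tap2, beside 14.3% of all genes. All 10 log2 fold changes were above 0, as were 45.9% of those of all genes, and their median was 0.54. In 8 of the 10 genes the 3 mutant libraries lay above the 3 WT libraries, beside 9.95% of all genes, and with 3 against 3 the smallest exact p for a single gene is 0.1.

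WT replicate 2 had the lowest value of the 6 libraries in all 10 genes, as it did in 13.4% of all genes tested. This is the WT library whose Xist and Eif2s3y values were those of the mutants. Without it, the estimate shrank for all 10 genes, by most for Ubd (0.99 to 0.49), Psmb9 (0.67 to 0.34) and Nlrc5 (0.55 to 0.23) and by least for Tapbp (0.18 to 0.10). With Xist as a covariate the estimates were larger instead, from 0.34 for Tapbp to 1.98 for Ubd, and none passed (adjusted p from 0.0615 for Nlrc5 to 0.557 for Ubd). Sex and genotype are told apart in this experiment through that WT library alone.

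H2-K1 was 776, 636 and 823 FPKM in WT and 919.98, 1125 and 864 in HDAC1cKO (log2 0.38, 95% interval 0.01 to 0.75). H2-D1 was 449.8, 295 and 433 FPKM in WT and 497, 526 and 490.4 in the mutant (0.39, -0.04 to 0.81). B2m was 1766, 1212 and 2057 FPKM in WT and 2333, 2230.4 and 2079 in the mutant (0.43, -0.09 to 0.95). In these 3 genes the mutant libraries were higher, but WT replicate 3 came close to the lowest of them for H2-K1 and B2m. The ratio of B2m to the sum of the heavy chains was 1.46 ± 0.17 in WT and 1.51 ± 0.15 in the mutant (n = 3, exact p = 0.7, where 3 against 3 cannot go below 0.1).

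Tap2 had the lowest p of the 10 in this comparison, at 86.2, 72.5 and 122 FPKM in WT and 162, 169 and 133 in HDAC1cKO (log2 0.75, 0.25 to 1.25, adjusted p = 0.227). Tap1 was 232, 127 and 238 FPKM in WT and 268, 339.9 and 254 in the mutant (0.57, -0.08 to 1.23). Tapbp was 214, 195 and 249.97 in WT and 245, 260.2 and 237 in the mutant, with overlapping groups (0.18, -0.08 to 0.44). Most of the WT spread in Tap1 came from replicate 2, at 0.542 of the mean of the other two.

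Psmb8 was 481, 303 and 477 FPKM in WT and 527, 531 and 735 in HDAC1cKO (0.52, -0.04 to 1.09). Psmb9 was 142, 82.0 and 189.7 FPKM in WT and 225, 197 and 202 in the mutant (0.67, -0.06 to 1.40). The Psmb9 share of its pair was 37.0% ± 10.1 in WT and 44.4% ± 3.3 in the mutant (exact p = 0.3), and the Psmb8 share was 65.7% ± 6.6 against 71.6% ± 4.1 (exact p = 0.3). Both shares overlapped between the groups.

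Nlrc5 was 26.9, 14.2 and 28.4 FPKM in WT and 32.4, 35.7 and 29.7 in HDAC1cKO (log2 0.55, -0.12 to 1.22). Its assembled locus started further downstream in 4 of the 6 libraries, 2 of each group. Ubd was 0.327, 0.034 and 0.229 FPKM in WT and 0.110, 0.474 and 1.12 in the mutant, with overlapping groups and a wide interval (0.99, -0.87 to 2.85). In the list genes none passed either. Ifng was 1.061, 0.457 and 4.01 FPKM in WT and 50.8, 42.5 and 95.3 in HDAC1cKO, 42.7-fold by the fit, with an unadjusted p of 0.000335 and an adjusted p of 0.114. Irf1 was 71.3, 39.6 and 114 FPKM in WT and 129.6, 121 and 96.5 in the mutant.

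**Figure D4:**
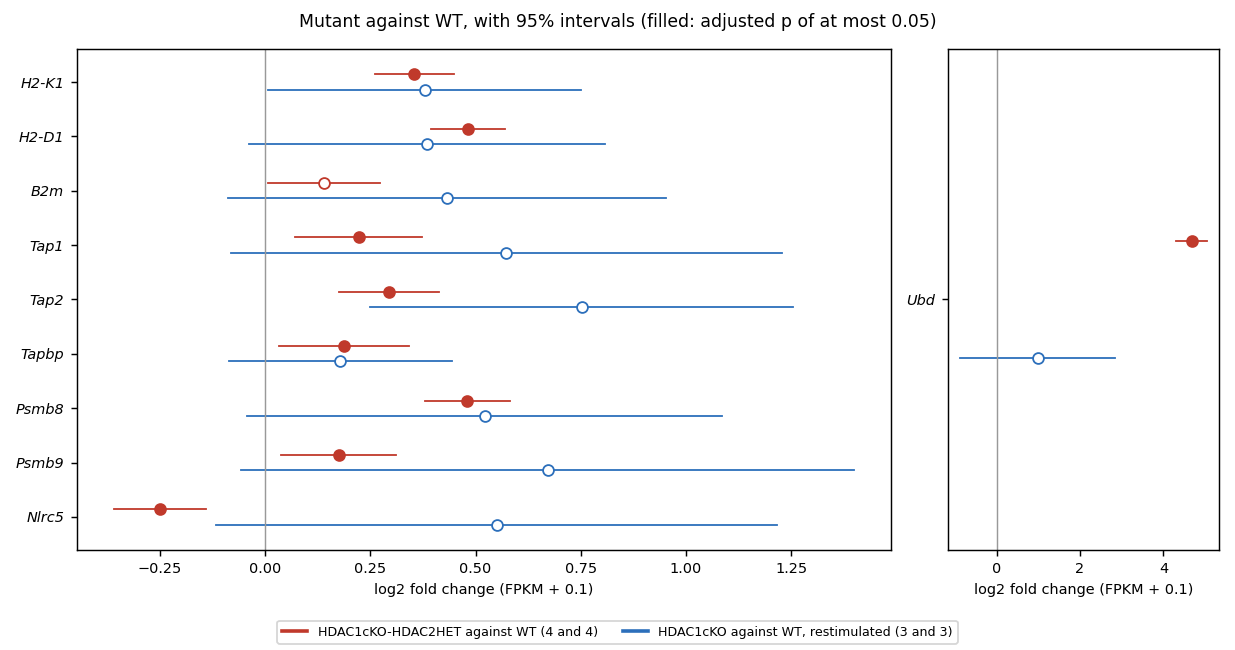
Log2 fold change on the log2(FPKM + 0.1) scale (x axis) of each of the 10 genes, mutant against WT, with 95% intervals, for HDAC1cKO-HDAC2HET (4 and 4 libraries) and HDAC1cKO after restimulation (3 and 3). Filled points passed at an adjusted p of at most 0.05. Ubd has its own axis. The intervals are wider after restimulation, and Nlrc5 is at -0.25 in the first and 0.55 in the second.

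The fold changes of the 2 experiments were then set against each other. They differ in genotype, in restimulation, in sex balance and in the libraries' preparation, which cannot be told apart. Of the 10 genes only Ubd passed, with a difference of 3.69 on the log2 scale (HDAC1cKO-HDAC2HET minus HDAC1cKO, SE 0.78, 95% interval 1.83 to 5.56, adjusted p = 0.0346), beside 9.07% of 12344 genes. The call was lost without WT replicate 1 or 3 of the restimulation experiment or without HDAC1cKO replicate 1 or 2, where the difference was 3.35, 3.54, 3.03 and 3.75 (adjusted p from 0.0760 to 0.101). For Nlrc5 the difference was -0.80 (-1.47 to -0.13, unadjusted p = 0.0257, adjusted p = 0.132), so its opposite directions did not pass. Intervals for the other 8 genes included 0, and the narrowest, for Tapbp, ran from -0.27 to 0.29.

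The genes whose pattern was most like that of 2 members over the 14 libraries were found by the Pearson correlation of log2(FPKM + 0.1) after the WT mean of the same experiment was subtracted, among 9531 genes. For Nlrc5 these were Armcx6 (r = 0.92), Gbp5 (0.90), Rgs1 (0.88), Cyb5d2 (0.88) and Mpeg1 (0.87). For H2-K1 they were Smarce1 (0.93), Il21r (0.91), Polr2g (0.90), B4galt5 (0.90) and its paralog H2-Q5 (0.90). Among the members, B2m and Psmb9 were most alike (r = 0.97) and Nlrc5 and H2-D1 least (r = 0.30). These values describe 14 libraries that share their WT references, depth and batches, and Ubd, below a mean of 1 FPKM in the second experiment, was not among the genes compared.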

How the data were processed

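RNA-Seq was run on 14 samples, grouped by the sample labels. The deposited values are FPKM, which the authors made with Cufflinks from single reads of activated CD4+ T cells. For the 3-day experiment the authors mapped reads to mm10 with TopHat, and the aligner of the restimulation experiment is not given in the sources used here. The submitters' processing notes also name FastQC, STAR 2.5.2b, Subread 1.5.1, R 3.4 and edgeR, whose output was not used here. FPKM are scaled to library size and length, and each library was assembled alone, so loci without a name were matched to genes of the GENCODE annotation of GRCm38 (vM21 of the mouse) where they shared at least 0.8 of the joint span. Only Ubd was listed by name in all 14 samples. A match at 0 was left out as a possible failed estimate. Depth was estimated from the deposited confidence bounds of low values, of which 76.2% to 83.5% came out whole with a tolerance of 0.05.

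The log2(FPKM + 0.1) values of an experiment were compared by limma (version 3.58.1, R 4.3.3), with an intensity trend, a mean FPKM of at least 0.1 and Benjamini-Hochberg adjustment over all genes tested. The difference between the fold changes used the separate standard errors of the 2 fits. The script was tested on simulated data. Shares and ratios were compared with 2-sided exact permutation tests over samples (SciPy). Intervals are 95%. Promoter sequences are from RefSeq. The members and lists were chosen with earlier results of these data known. Genes named besides the 10 were Hdac1, Hdac2, up to 4 of each list with the greatest change among those that passed in the 3-day experiment, any that passed after restimulation, Ifng, Irf1, Ciita and the constitutive or inducible subunits Psmb5, Psmb6, Psmb7 and Psmb10, and the 5 genes most like Nlrc5 and H2-K1. Ms4a1, Xist, Eif2s3y, H2-Q4, H2-T24, Erap1 and Klrc1 were added after their values were seen. Some items that the rule names are not reported here. The p-values measure the spread between samples, which may be technical in part. Alternatives were another pseudocount, filter, scaling, variance model, weights, a replicate block, an Xist covariate, a common fit, other matching and leaving out each sample.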

Additional observations from a re-analysis of the deposited data

Results flagged for a closer look

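In 10 of 114 groups of 4 libraries, over the named genes and the shares, 1 library stood apart by Dixon's gap test, which chance does in about 1 in 20 groups. For the 10 class I genes these were Tapbp in HDAC1cKO-HDAC2HET replicate 1, at 176.8 FPKM against 206.6 to 209.2 in the others, and Ubd in WT replicate 1 at 3 days, at 0.382 FPKM against 0.21 to 0.237. The Psmb8 share of its pair was 73.55% in HDAC1cKO-HDAC2HET replicate 4 against 72.34% to 72.53%, and the Psmb9 share was 41.39% in replicate 3 against 44.96% to 45.42%. Psmb7 was 288.4 FPKM in WT replicate 4 and 374.8 in HDAC1cKO-HDAC2HET replicate 4, against 173.5 to 179.6 and 189.97 to 206.1 in the others of each group, and Psmb10 was 85.27 in WT replicate 4 against 60.21 to 63.25. In HDAC1cKO-HDAC2HET, Irf1 (181.1 FPKM) and Lag3 (183.2) were highest in replicate 1, and H2-DMa (19.89) in replicate 4.

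The fold change of Ubd differed between the 2 experiments by 3.69 on the log2 scale (adjusted p = 0.0346), and Ubd was higher than every WT library in 4 of 4 HDAC1cKO-HDAC2HET samples and in 2 of 3 HDAC1cKO samples.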

How the results depend on the processing

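H2-K1, H2-D1, Psmb8 and Ubd passed in the 3-day experiment under every setting in which they could be tested, with log2 fold changes of 0.34 to 0.38, 0.46 to 0.51, 0.46 to 0.51 and 3.00 to 5.09. Of the 10 genes, 8 passed as higher in the main analysis, 4 with all 14 samples in 1 fit, which also ended the calls of Nlrc5, Tap1, Tap2, Tapbp and Psmb9 (0 lower), and 1 where only rows with a name were used, in which Ubd alone could be tested (0 lower). Leaving out 1 sample gave 5 to 8, the 5 being without WT replicate 3 or without HDAC1cKO-HDAC2HET replicate 4. Over all genes, 1687 passed with a change of at least 2-fold, against 740 with a pseudocount of 1, 1030 with a mean FPKM of at least 1 and 414 with named rows only.

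After restimulation 2 of the 10 genes, H2-K1 and Tap2, passed in the fit of all 14 samples (adjusted p = 0.0404 and 0.01) and none in the other settings. Over all genes, 9 passed there with a change of at least 2-fold, against 14 with a mean FPKM of at least 1 or with robust moderation, 22 with array weights, 64 with Xist as covariate and 275 in the fit of all samples. Leaving out 1 sample gave 12 to 52, with 26, 24 and 52 without WT replicates 1, 2 and 3 and 16 and 18 without HDAC1cKO replicates 1 and 2. The causes were not tested.

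Same-numbered libraries showed little common deviation, with correlations from -0.073 to 0.135 in the 3-day experiment and -0.084 to 0.06 after restimulation. With so few libraries in a group, this check cannot exclude that the numbers pair the samples. With a replicate block 1637 genes were called in the 3-day experiment and 5 after restimulation, and 7 of the 10 genes passed as higher in the 3-day experiment, without Tapbp.

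The difference of the 2 fold changes turned its sign in 4 genes that did not pass: H2-K1 (-0.1037 to 0.0869 without 1 sample), H2-D1 (-0.0141 to 0.29), Tapbp (-0.0888 to 0.0891) and Psmb8 (-0.15 to 0.18). The FPKM files give no counts, and low values such as Ubd in WT carry the uncertainty of their deposited bounds. Loci shared by paralogs or by overlapping genes limit H2-K1, H2-D1, Psmb9 and Tap1. The Xist covariate, coded as above or below 1 FPKM, has 1 value in the 3-day experiment, where its level was 58.9 to 65.2 FPKM in WT and 26.0 to 33.7 in the mutant. A fit on that level was not run.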

Other observations

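The class I genes lie among many others in the MHC region of chromosome 17. Between the start of Tapbp and the end of Ubd, a span chosen after the values were seen, 124 genes other than the members were tested in the 3-day experiment, of which 28.2% passed as higher and 25.0% as lower in HDAC1cKO-HDAC2HET, and the median was 0.04 on the log2 scale. Over all genes tested, 24.2% passed as higher and 27.6% as lower.

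The genes whose pattern was most like Nlrc5 did not all move as it did. Armcx6, Gbp5, Rgs1 and Cyb5d2 were at 0.729, 0.851, 0.606 and 0.826 of WT in HDAC1cKO-HDAC2HET and at 1.46-fold, 1.39-fold, 1.46-fold and 2.31-fold in HDAC1cKO, whereas Mpeg1 was above WT in both, at 1.35-fold and 5.29-fold.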
